A study of Danio rerio with 18 samples.

Results

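Ribose methylation of ribosomal RNA was compared between 12-somite zebrafish embryos and unfertilized eggs. The comparison used 3 libraries of 12-somite embryos and 3 libraries of unfertilized egg, 6 of the 18 samples of the series, at all 98 rRNA sites that the authors list. Both groups are whole-cell RNA of Danio rerio with no treatment or mutation in the labels, and each library is a biological replicate per the labels. How many eggs or embryos gave a library is not given in the sources used here. Of the other samples, 8 RiboMeth-seq libraries served to estimate the spread (3 from the 32-cell stage, 3 from the protruding-mouth stage, 2 from adult tail), and 4 small-RNA samples were not analysed here. The files hold rRNA positions only, so the stage labels could not be checked against marker genes.

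Ribose methylation puts a methyl group on the sugar of a nucleotide. In animals most of these groups are placed by the enzyme fibrillarin, which box C/D small nucleolar RNAs guide to a site by base pairing with the rRNA. The zebrafish egg holds rRNA made from 1 set of genes, here called early rRNA. During development this rRNA is replaced by rRNA from another set of genes, the late rRNA. In RiboMeth-seq, RNA is broken by alkali, which cannot cut beside a methylated sugar, so read ends are missing at a methylated position. The score compares the read ends at a site with those of 6 positions on each side and lies between 0 for no sign of methylation and 1 for full methylation. Read ends of both groups were counted on the early rRNA, per the file headers, so positions are those of the early rRNA counted from its 5′ end. Site names are the authors' and follow human numbering.

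The 12-somite libraries held 9063104, 10305061 and 4408072 read ends, against 15358081, 13359005 and 7948776 in the egg libraries. The third 12-somite library was the smallest and had 10.4% of its ends on 10 positions. Each library carried a barcode, and no barcode was used in both stages, so an effect of the barcode cannot be told apart from one of the stage. How much late rRNA the 12-somite libraries held, and its part in the values below, was not tested.

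The sites with the largest upward differences are shown with 21 bases of rRNA in the sense strand, from the deposited sheets. Capitals mark the methylated nucleotide. The early and late rRNA are both given where they differ within 6 positions of the site, since reads of both groups were placed on the early sequence.
28S-Cm3916, early rRNA position 3197: uagucuggccCugugaagaga
28S-Cm3916, late rRNA position 3085: uagucuggcaCugugaagaga
28S-Am4560, early rRNA position 3860: ugcaauaguaAucccgcucag
28S-Am4560, late rRNA position 3709: ugcaauaguaAuccugcucag
18S-Gm509, early rRNA position 555: gacacggagaGguagugacga
18S-Gm509, late rRNA position 519: gacacggggaGguagugacga
18S-Am1637, early rRNA position 1702: cccgagaacgAggaauuccca
18S-Am1637, late rRNA position 1656: cccaucaacgAggaauuccca
18S-Cm1272, early rRNA position 1339: cucacccggcCcggacacgga
The next 2 neighbouring sites are shown because they lie in the A-loop of the large subunit, the loop that pairs with the end of the transfer RNA in the ribosome's A site. In yeast, the G of this pair is methylated by the enzyme Spb1 without a guide RNA.
28S-Um4468, early rRNA position 3766: agcguuggauUguucacccac
28S-Gm4469, early rRNA position 3767: gcguuggauuGuucacccacu

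Most sites were near full methylation in both groups. The median score over the 98 sites averaged 0.933 ± 0.00467 in 12-somite embryos and 0.948 ± 0.0129 in egg (SD, n = 3 each). The difference of -0.0150 had an exact two-sided permutation p of 0.10, the smallest that 3 against 3 libraries can give, and all 3 12-somite medians lay below all 3 egg medians. Without the first egg library it was -0.00761. Of the stage means, 86 in 12-somite embryos and 92 in egg were at least 0.75. Means between 0.25 and 0.75 were found at 12 sites in 12-somite embryos and 4 in egg. With 5′ read ends alone these counts were 4 in 12-somite embryos and 5 in egg, and 93 means in 12-somite embryos and 92 in egg were at least 0.75. The authors' barcode-corrected means in 12-somite embryos were 0.926 instead of 0.622 at 18S-Cm462 and 0.759 instead of 0.565 at 28S-Um3904. Both sites then reached 0.75, while no egg mean changed class with this correction. In the combined score, no site in 12-somite embryos and 2 sites in egg, 28S-Cm3916 and 28S-Am4560, had a mean under 0.25.

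No single site passed the test. Limma on the scores of 14 libraries, with Benjamini-Hochberg adjustment over the 98 sites, called 0 sites at an adjusted p under 0.05 (0%), and the smallest adjusted p was 0.121. At an unadjusted p under 0.05 there were 9 sites (9.18%), of which 5 (5.1%) had a higher and 4 (4.08%) a lower mean in 12-somite embryos. A quasi-binomial model of the read-end counts gave 15 sites at that unadjusted level and likewise 0 after adjustment. The libraries of both groups did not overlap at 14 sites (14.3%), 4 of them higher (4.08%) and 10 lower (10.2%) in 12-somite embryos.

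The difference of stage means lay between -0.272 and 0.412, with a median of -0.0100 over all sites. It stayed under 0.1 in size at 87 sites and reached 0.1 at 11 (11.2%), 4 higher and 7 lower in 12-somite embryos. The median standard error of a difference was 0.0284. By subunit, 4 of 35 sites of 18S, 7 of 60 of 28S and 0 of 3 of 5.8S rRNA reached 0.1. By nucleotide, 5 of 19 C, 2 of 29 A, 2 of 28 G and 2 of 22 U sites reached it, while with 5′ ends alone these counts were 2 C, 3 A, 2 G and 1 U. With barcode-corrected scores, 3 of the 11 sites (18S-Gm509, 18S-Cm462 and 28S-Am3697) were under 0.1.

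**Figure D1:**
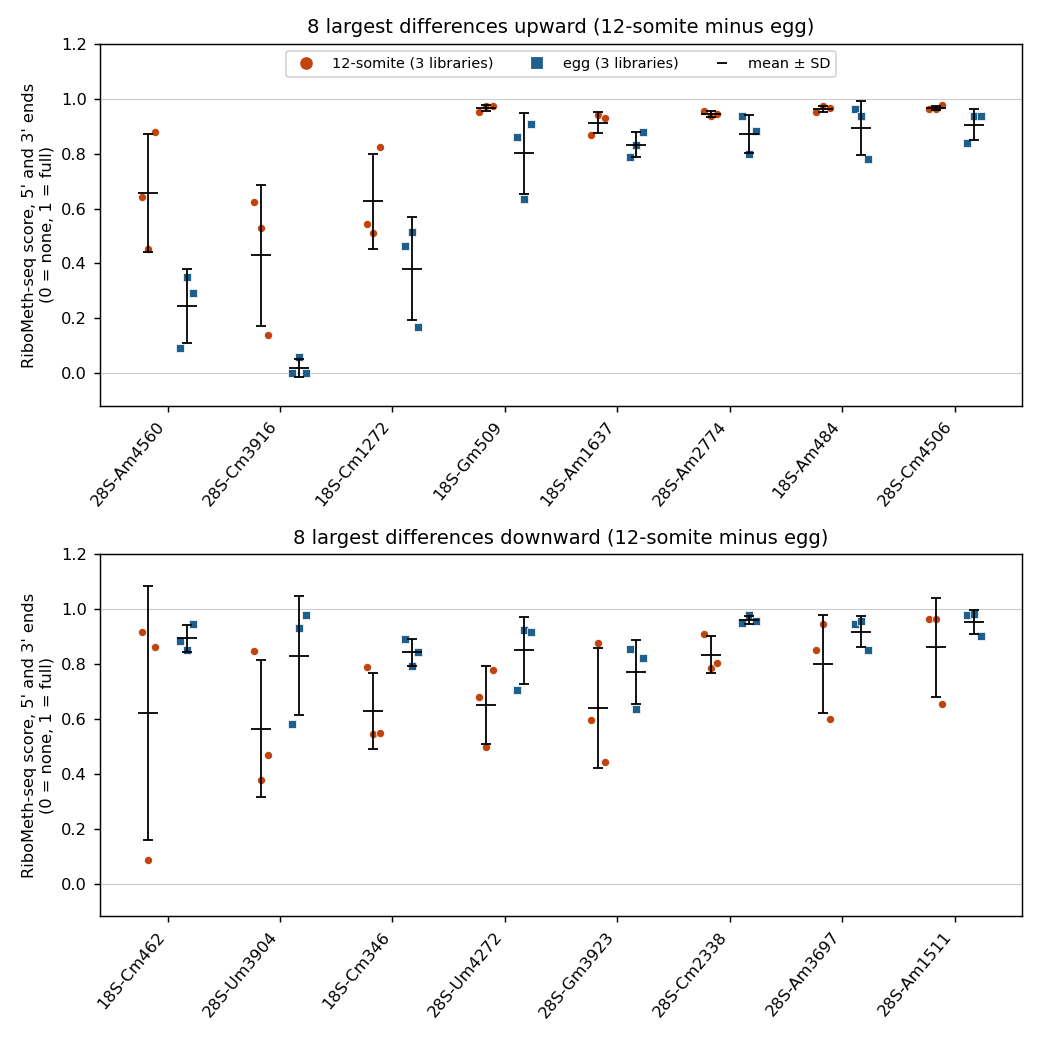
RiboMeth-seq scores (no unit, 0 to 1) from 5′ and 3′ read ends at the 8 sites with the largest differences upward and the 8 with the largest downward, with 3 12-somite libraries (circles) left of 3 egg libraries (squares). Bars are mean ± SD. The 12-somite libraries lie apart from the egg libraries at 28S-Am4560, 28S-Cm3916, 18S-Gm509 and 28S-Cm4506 in the upper panel and at 18S-Cm346 and 28S-Cm2338 in the lower one.

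Among the higher sites, the smallest p belonged to 28S-Cm3916, a C of the large subunit. It scored 0.622, 0.528 and 0.138 in the 12-somite libraries, against 0, 0.0579 and 0 in the egg libraries. All 12-somite values lay above all egg values, though the third 12-somite library was well below the other 2. The counts behind the score were 591, 1046 and 2230 ends at the site in 12-somite libraries, where the 12 flanking positions averaged 1590, 2278 and 2534. In egg, 3216, 2409 and 2909 ends stood at the site, beside flanking means of 3154, 2626 and 2588, so ends stood at this C about as often as around it. The difference of means was 0.410 with a standard error of 0.109 (95% interval 0.168 to 0.653), with a limma adjusted p of 0.173. Without the third 12-somite library it was 0.556 with a limma adjusted p of 0.00228. On the logit scale, with scores limited to 0.01 to 0.99, the limma adjusted p was 0.00288. Leaving out any other egg or 12-somite library gave limma adjusted p between 0.233 and 0.399. With the 2 stages alone the limma adjusted p was 0.372, and the quasi-binomial model gave an adjusted p of 0.259. The 32-cell libraries also lay above all egg libraries, at 0.226, 0.522 and 0.346. Protruding-mouth larvae, whose reads were counted on the late rRNA, scored 0.779, 0.757 and 0.663. The base just before this C differs between early and late rRNA.

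An A in the large subunit, 28S-Am4560, had the largest difference of all. Its 12-somite scores were 0.641, 0.451 and 0.877, and its egg scores 0.0906, 0.351 and 0.293. These groups did not overlap, but both were spread widely, and the difference of 0.412 had a standard error of 0.185 and a limma adjusted p of 0.475. The 32-cell libraries covered nearly the whole range, with 0.743, 0 and 0.439.

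Of the 2 sites in the small subunit that were higher by at least 0.1, 18S-Gm509 scored 0.952, 0.973 and 0.973 in 12-somite embryos, against 0.861, 0.633 and 0.909 in egg. The 12-somite values were tight and close to full methylation, while the second egg library was low. Only 16, 5 and 1 ends stood at this G in the 12-somite libraries, beside flanking means of 351.3, 189.9 and 35.25. In egg 391, 566 and 80 ends stood there, in libraries whose lowest flanking means at any site were 1215, 847.9 and 439.3. The 12-somite libraries thus had fewer ends around this G as well, so the counts at the G cannot be compared by themselves. The difference was 0.165, with a limma adjusted p of 0.377. It was 0.0810 without the second egg library and 0.0878 with barcode-corrected scores, both under 0.1. At 18S-Cm1272 the scores were 0.544, 0.511 and 0.824 in 12-somite embryos and 0.462, 0.514 and 0.168 in egg. Here the groups overlapped, and the difference of 0.245 had a limma adjusted p of 0.475. It was 0.139 without the third egg library and 0.146 without the third 12-somite library.

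The 7 sites that were lower by at least 0.1 in 12-somite embryos were 18S-Cm462, 28S-Um3904, 18S-Cm346, 28S-Um4272, 28S-Gm3923, 28S-Cm2338 and 28S-Am3697. At 18S-Cm462, 1 library decided the value. Its 12-somite scores were 0.917, 0.0868 and 0.861, against 0.884, 0.851 and 0.947 in egg. The second 12-somite library had 2167 ends at this C, against 95 and 56 in the other 2. The difference was -0.272, with a standard error of 0.192 and a limma adjusted p of 0.550. Without the second 12-somite library it was -0.00500, with barcode-corrected scores -0.0157, and without the first 12-somite library -0.420.

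At 18S-Cm346 the 12-somite scores of 0.789, 0.546 and 0.550 all lay below the egg scores of 0.893, 0.793 and 0.844, a difference of -0.215 with a limma adjusted p of 0.475. Likewise, 28S-Cm2338 scored 0.912, 0.787 and 0.805 in 12-somite embryos and 0.949, 0.978 and 0.957 in egg. Its difference of -0.127 had a standard error of 0.0390 and a limma adjusted p of 0.273. At the other 4 sites the groups overlapped and the differences ran from -0.266 to -0.118. Single libraries moved each of these. Without the third 12-somite library the difference was -0.0191 at 28S-Am3697 and -0.0345 at 28S-Gm3923, and without the second it was -0.192 at 28S-Am3697, -0.250 at 28S-Gm3923, -0.172 at 28S-Um3904 and -0.121 at 28S-Um4272. It was -0.408 at 28S-Um3904 without the first 12-somite library and -0.199 at 28S-Gm3923 without the second egg library. Barcode-corrected scores gave 0.00963 at 28S-Am3697. At 28S-Um3904 the scores were 0.848, 0.377 and 0.470 in 12-somite embryos and 0.581, 0.933 and 0.980 in egg.

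The same sites were then scored from the 5′ read ends alone, which the sheets give separately. With these ends limma on 12 libraries of 4 stages again called 0 of 98 sites (0%). The smallest limma adjusted p was 0.0884, at a G of 28S rRNA. An unadjusted p under 0.05 was reached by 14 sites (14.3%), 4 higher (4.08%) and 10 lower (10.2%). The groups did not overlap at 19 sites (19.4%), 7 higher (7.14%) and 12 lower (12.2%), and 8 sites (8.16%) differed by at least 0.1, 3 higher and 5 lower. Scores from 3′ ends alone could be had at 96 sites, of which 0 were called (0%) and 8 (8.33%) had an unadjusted p under 0.05, 7 higher (7.29%) and 1 lower (1.04%). Without overlap stood 12 sites (12.5%), 5 higher (5.21%) and 7 lower (7.29%), and 20 sites (20.8%) differed by at least 0.1.

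The higher and the lower sites differed in what the 5′ ends gave. Among the 4 sites that were higher by at least 0.1, 28S-Cm3916, 28S-Am4560 and 18S-Cm1272 were so with each kind of end. 18S-Gm509 was higher by 0.0967 with 5′ ends and by 0.192 with 3′ ends. The 7 sites that were lower by at least 0.1 all differed by less than 0.025 with 5′ ends. With 3′ ends, 18S-Cm346, 18S-Cm462, 28S-Um3904, 28S-Um4272 and 28S-Cm2338 were lower by at least 0.1. The 3′ difference was -0.0695 at 28S-Am3697 and 0.0276 at 28S-Gm3923. Both kinds of end share the libraries, and the combined score is made from them, so these counts are a description. Over the 96 sites the 5′ and 3′ scores differed in the same direction at 54.

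**Figure D2:**
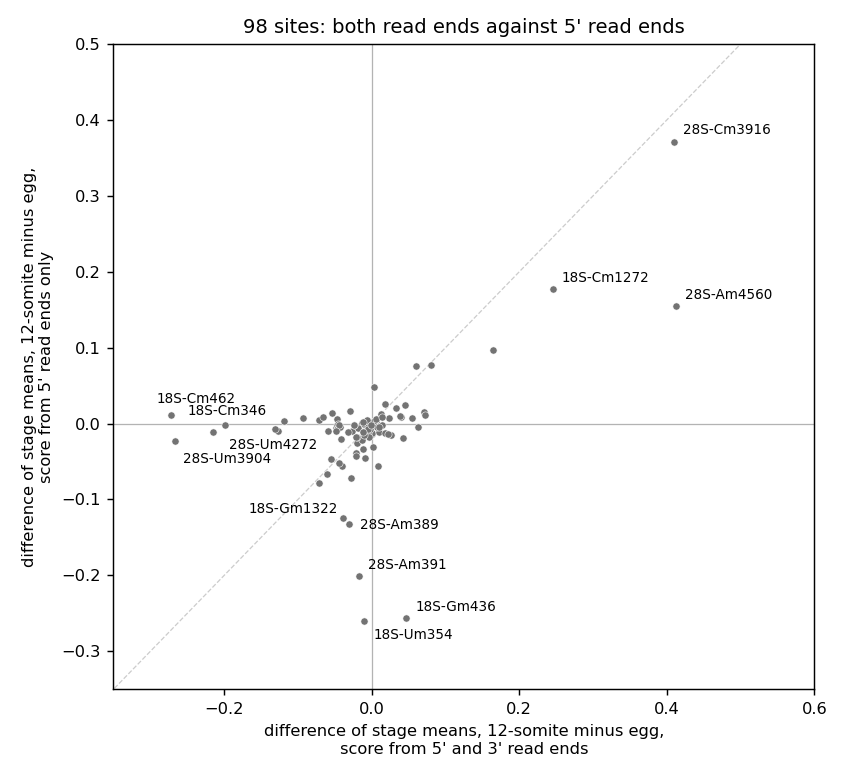
Difference of stage means, 12-somite minus egg (score, no unit), for each of the 98 sites (points), from 5′ and 3′ read ends on the x axis and from 5′ ends alone on the y axis. The dashed line marks equal differences. The 7 sites at -0.1 or less on the x axis lie within 0.025 of 0 on the y axis, while 28S-Cm3916, 28S-Am4560 and 18S-Cm1272 are above 0.1 on both.

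From 5′ ends alone, 28S-Cm3916 scored 0.548, 0.152 and 0.415 in 12-somite embryos and 0 in each egg library. The mean was 0.371 ± 0.201 in 12-somite embryos (SD, n = 3), and the limma adjusted p of the difference was 0.131. From 3′ ends it scored 0.628, 0.637 and 0.137 in 12-somite embryos, against 0.229, 0.201 and 0.231 in egg. This 3′ difference of 0.247 had a limma adjusted p of 0.777. The third 12-somite library was thus below egg in 3′ ends and above it in 5′ ends, where its flanking positions averaged only 6.58 ends. At 28S-Am4560 the 5′ scores were 0.75, 0.723 and 0.880 in 12-somite embryos and 0.541, 0.756 and 0.594 in egg, a difference of 0.154 that was smaller than the 0.442 of the 3′ ends. At 18S-Gm509 they were 0.925, 0.989 and 0.964 in 12-somite embryos, against 0.829, 0.864 and 0.895 in egg, with no overlap and a limma adjusted p of 0.207.

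Besides these 4, 18S-Am1637 was also higher by at least 0.05 with both kinds of end. Its combined scores were 0.868, 0.941 and 0.931 in 12-somite embryos and 0.788, 0.832 and 0.879 in egg, which overlapped narrowly. With 5′ ends they were 0.922, 0.985 and 0.980 in 12-somite embryos, against 0.888, 0.848 and 0.920 in egg, with no overlap. The difference was 0.0773 with 5′ ends (limma adjusted p 0.131) and 0.0901 with 3′ ends (limma adjusted p 0.495). In the other direction, 1 site, 28S-Cm2848, was lower by at least 0.05 with both kinds of end. It was chosen after its values were seen.

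**Figure D3:**
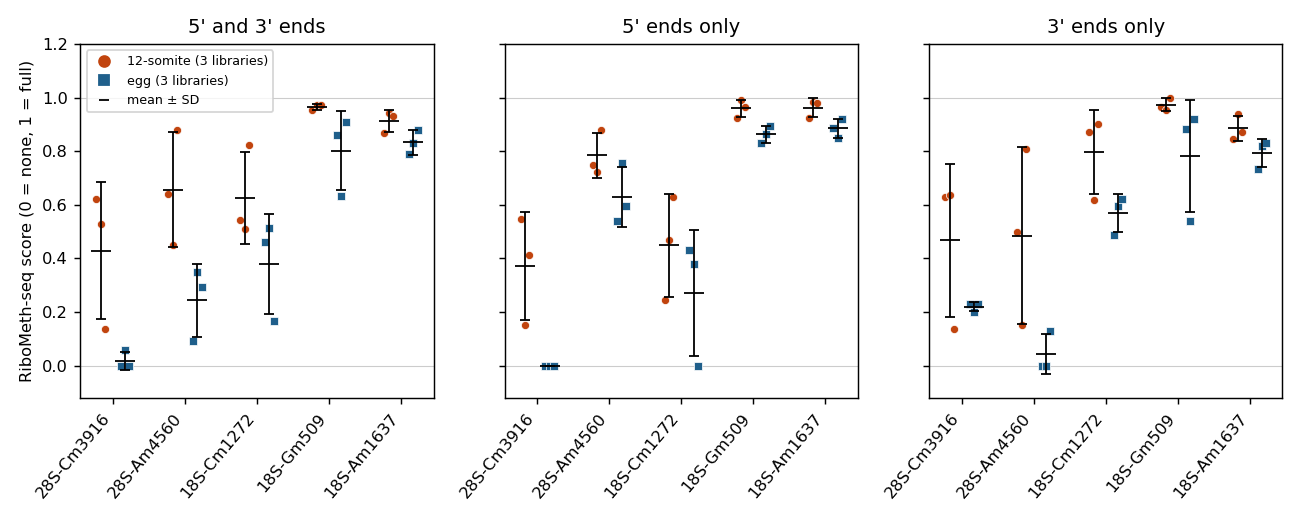
RiboMeth-seq scores (no unit) of the 5 sites that were higher by at least 0.05 with each kind of read end, from both kinds of end (left), 5′ ends (middle) and 3′ ends (right), with 3 12-somite libraries (circles) left of 3 egg libraries (squares) and mean ± SD. The 12-somite mean is above the egg mean at all 5 sites in each panel.

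At the lower sites the 5′ ends gave nearly full methylation in both groups. For 28S-Cm2338 the 5′ scores were 0.985, 0.957 and 1 in 12-somite embryos and 0.991, 0.992 and 0.991 in egg. For 18S-Cm346 they were 0.972, 0.959 and 0.936 in 12-somite embryos, against 0.974, 0.935 and 0.99 in egg. The 3′ scores of 18S-Cm346 carried the difference, with 0.641, 0.479 and 0.332 in 12-somite embryos and 0.754, 0.672 and 0.723 in egg. At 18S-Cm462 the 5′ score was 1 in every 12-somite library, but the flanking positions averaged as few as 0.833 ends there, so this value has little behind it.

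Some sites were lower with 5′ ends only. At 18S-Gm436 the 5′ scores were 0.472, 0.389 and 0.510 in 12-somite embryos and 0.695, 0.563 and 0.881 in egg, a difference of -0.256 with a limma adjusted p of 0.192. Its 3′ ends went the other way, with 0.404, 0.637 and 0.727 in 12-somite embryos and 0.454, 0 and 0.387 in egg. The partial site 18S-Um354 showed the same opposition, with a difference of -0.260 from 5′ ends and 0.168 from 3′ ends, and its combined scores of 0.331, 0.319 and 0.538 in 12-somite embryos overlapped the 0.508, 0.495 and 0.216 of egg. Both sites thus have no direction that holds for both kinds of end. The other 3 sites that were lower by at least 0.1 with 5′ ends, 18S-Gm1322, 28S-Am389 and 28S-Am391, were chosen after their values were seen. With 3′ ends each of these 3 differed by less than 0.05 in either direction.

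Smaller differences stood out at sites with tight libraries. The smallest adjusted p belonged to 18S-Um286, with 0.931, 0.903 and 0.870 in 12-somite embryos and 0.989, 0.958 and 0.973 in egg. The groups did not overlap, and the difference was -0.0721 with a standard error of 0.0164 and a limma adjusted p of 0.121. Without the first 12-somite library it was -0.0870, with a limma adjusted p of 0.0326. Nearly all ends around this U were 5′ ends, 96.5% in 12-somite libraries and 95.1% in egg libraries, and the few 3′ ends gave 1 in each 12-somite library. Its neighbour 18S-Um287 scored 0.934, 0.984 and 0.976 in 12-somite embryos and 0.992, 0.982 and 0.979 in egg, which overlapped.

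In the large subunit, 28S-Am2802 scored 0.963, 0.914 and 0.951 in 12-somite embryos, against 0.983, 0.985 and 0.995 in egg, a difference of -0.0449 with a limma adjusted p of 0.341. 28S-Gm3771 scored 0.956, 0.902 and 0.875 in 12-somite embryos, against 0.973, 0.957 and 0.985 in egg, a difference of -0.0605 with a limma adjusted p of 0.410. Neither pair of groups overlapped. The last of the 9 sites, 28S-Cm4506, was higher in the combined score with a difference of 0.0624, but this was 0.0298 without the first egg library and -0.00468 with 5′ ends.

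Of the 9 sites with an unadjusted p under 0.05, 6 also had one with 5′ ends and in the same direction. These were 18S-Gm509, 18S-Am1637 and 28S-Cm3916, higher in 12-somite embryos, and 18S-Um286, 28S-Am2802 and 28S-Gm3771, lower. The 5′ ends are part of the combined score, so this overlap is a description and not a separate check. With 3′ ends the direction turned at 18S-Um286 (0.0915) and 28S-Am2802 (0.00901). It held at 18S-Gm509, 18S-Am1637, 28S-Cm3916 and 28S-Gm3771. With 5′ ends the full fit called 0 sites, as did each fit without 1 egg or 12-somite library, except the first 12-somite library. In the fit without that library, chosen after the data were seen, 6 sites had a limma adjusted p under 0.05. Among them were 18S-Um286, 18S-Am1637, 28S-Am2802 and 28S-Gm3771. The other two, 28S-Gm1303 and 28S-Cm4032, were chosen after their values were seen.

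The pair of sites in the A-loop stayed close to full methylation. 28S-Um4468 scored 0.953, 0.951 and 0.968 in 12-somite embryos and 0.981, 0.987 and 0.967 in egg, a difference of -0.0208 with a 95% interval of -0.0443 to 0.00261. 28S-Gm4469 scored 0.943, 0.934 and 0.960 in 12-somite embryos, against 0.858, 0.900 and 0.954 in egg. Both groups overlapped at each site in the combined score. With 5′ ends both sites were lower in 12-somite embryos without overlap, with differences of -0.0421 at 28S-Um4468 and -0.0189 at 28S-Gm4469, and the G had a limma adjusted p of 0.323.

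The 3 sites of 5.8S rRNA, the short rRNA of the large subunit, did not separate the groups in the combined score. 5.8S-Um14 is partly methylated and scored 0.552, 0.75 and 0.814 in 12-somite embryos and 0.727, 0.674 and 0.537 in egg. 5.8S-Um8 scored 0.904, 0.851 and 0.568 in 12-somite embryos, against 0.830, 0.617 and 0.880 in egg. These 2 lie near the 5′ end of the molecule and had 0 flanking 3′ ends in some library. 5.8S-Gm75 scored 0.922, 0.842 and 0.892 in 12-somite embryos and 0.962, 0.946 and 0.908 in egg. With 3′ ends alone 5.8S-Gm75 was lower without overlap, with 0.920, 0.842 and 0.886 in 12-somite embryos and 0.956, 0.961 and 0.928 in egg. In the large subunit, 28S-Gm2817 had a mean under 0.75 in 12-somite embryos but not in egg. The site gave 0.722, 0.697 and 0.784 in 12-somite embryos and 0.781, 0.808 and 0.742 in egg. The difference of -0.0428 had a limma adjusted p of 0.599.

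Positions where early and late rRNA differ were then set beside the sites. With both sequences set side by side without gaps, such a difference lies within 6 positions of 15 of the 98 sites. The alignment with gaps also puts a difference 5 bases downstream of 5.8S-Gm75, which is counted here among the other 83. Among these 15, 5 had an unadjusted p under 0.05, 4 higher and 1 lower in 12-somite embryos, and among the other 83 there were 4, 1 higher and 3 lower. Differences of at least 0.1 were found at 3 of the 15 sites, all higher, and at 8 of the 83, 1 higher and 7 lower. This split depends on the cut of 6 positions. In the alignment with gaps, early and late rRNA differ 7 bases upstream of 18S-Cm346 and 28S-Cm2338 and 8 upstream of 28S-Gm3923. At the rest of the 7 lower sites the nearest differing base is 11 or more bases away. With 5′ ends alone, an unadjusted p under 0.05 was reached at 4 of the 15 sites and 10 of the 83. Differences of at least 0.1 were then found at 2 of the 15 and 6 of the 83. Over all 98 sites, that p was reached at 9 (9.18%) with the combined score and at 14 (14.3%) with 5′ ends. Of the 5 sites higher with both kinds of end, only 18S-Cm1272 had no differing base within 6 positions, and its nearest lay 14 bases upstream. The median difference of the combined score was -0.00810 over the 15 sites and -0.0102 over the 83. These counts are given with no test of the list.

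The balance of 5′ and 3′ ends around the sites was more uneven in the 12-somite libraries. Over the 98 sites the lower and upper quartiles of the share of 5′ ends were 34.0% and 72.3%, 24.8% and 73.8%, and 15.5% and 78.3% in the 3 12-somite libraries. In the egg libraries they were 40.0% and 61.0%, 34.9% and 66.8%, and 38.8% and 64.3%. The share was under 10% at 6, 8 and 18 sites in the 12-somite libraries and at 0 sites in each egg library. With the ends of a group's libraries pooled, it was 0.933% in 12-somite embryos and 49.4% in egg at 18S-Cm462. It was 3.70% and 47.3% at 28S-Gm3923, and 9.72% and 54.6% at 28S-Cm3916. At 18S-Gm436 it was 86.1% in 12-somite embryos and 40.9% in egg. The part of this imbalance in the score differences was not tested beyond the scores by kind of end given above.

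**Figure D4:**
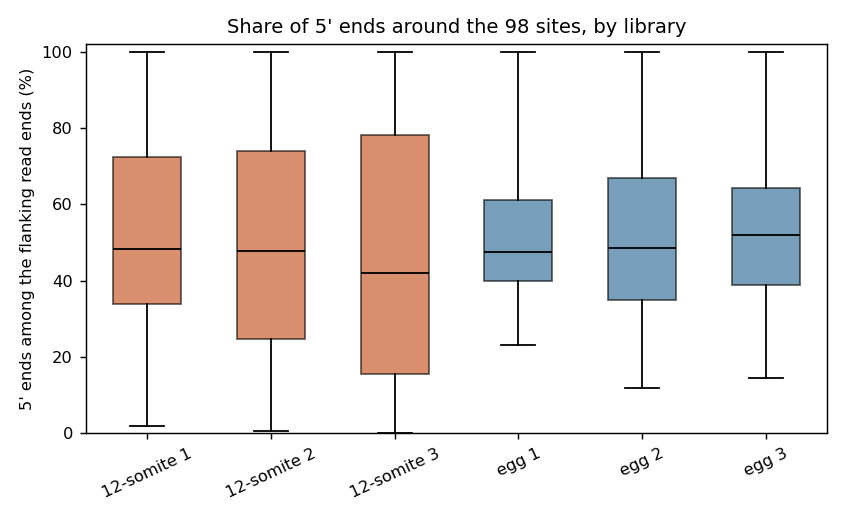
Share of 5′ ends among the read ends at the flanking positions of each of the 98 sites (percent), by library, with 3 12-somite libraries left of 3 egg libraries. Boxes span the quartiles with the median as a line, and whiskers reach the lowest and highest site. The boxes of the 12-somite libraries are taller, most of all in the third.

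The share was also taken by distance from the positions where early and late rRNA differ, a measure chosen after the data were seen. At positions with such a difference within 20 bases downstream and none within 40 upstream, 5′ ends made up 41.5%, 43.4% and 24.4% of all ends in the 12-somite libraries. The egg libraries had 49.2%, 49.0% and 51.2%. All 12-somite values lay below all egg values (exact two-sided permutation p 0.10, the smallest possible), and the third 12-somite library stood apart. The 32-cell libraries, with 40.5%, 44.6% and 42.5%, were also below egg. At positions with a difference within 20 bases upstream and none within 40 downstream the groups overlapped, with 52.9%, 50.8% and 78.8% in the 12-somite libraries and 51.8%, 49.0% and 51.3% in the egg libraries (exact two-sided permutation p 0.30). All these shares are of summed ends, so positions with many ends weigh most. The upstream positions held 17.8% of all ends in the third 12-somite library. They held 11.3% and 10.5% in the other 12-somite libraries and 10.2% to 10.3% in the egg libraries. Farther than 40 bases from any difference the shares were 48.4%, 54.0% and 60.3% in the 12-somite libraries and 50.6%, 51.5% and 50.8% in the egg libraries (exact two-sided permutation p 0.40).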

How the data were processed

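Alkali-broken whole-cell RNA was turned into RiboMeth-seq libraries for Ion Proton sequencing, per the labels' protocols. The submitters' processing notes name cutadapt 2.0 and, for mapping, Bowtie2 2.3.4.1. The deposited sheets hold the count of read ends at each rRNA position, not normalized, and a score per library as a fraction from 0 to 1. In the overview the authors give the score as mean and SD per stage.

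The score was recomputed from the counts as 1 minus a ratio, the ends at a position over the expected ends, with negative values set to 0. The expected ends were the mean of both sides, each a weighted mean of 6 flanking positions (weight 1 for the nearest, 0.5 for the farthest). The result differed from the deposited one by at most 5e-13. For the combined score a site needed a mean of 10 flanking ends, and the lowest was 32.25. No minimum was set for scores from a single kind of end, and the lowest 5′ flanking mean in the 2 stages was 0.833. A further 5′ fit with a minimum of 10 kept 93 sites and called 0. Per the file headers, the authors corrected overview means for the barcode, and 11 of these belong to the 2 stages. These were rebuilt by putting in 5′ scores, and which libraries were corrected is inferred. The text uses uncorrected scores.

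The untransformed scores went into limma 3.58.1 (R 4.3.3), with 5 stage means over 14 libraries (4 stages and 12 libraries for single kinds of end), a moderated contrast of 12-somite minus egg and Benjamini-Hochberg adjustment over all sites at 0.05. The code was tested on simulated data. Intervals are 95% from this fit and cover the spread between libraries. Biopython 1.88 aligned the early with the late sequence for the shares of 5′ ends by distance, while differences within 6 positions of a site were taken without gaps. Exact tests used scipy 1.17.1 and figures matplotlib 3.10.9, in Python 3.11.15. Another 10 per-library columns of adult tail were left out.

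Named sites were the 8 largest differences each way, those with an unadjusted p under 0.05 or a stage mean under 0.75, the 5.8S sites, the A-loop pair, 28S-Cm3916, 28S-Gm2817 and 18S-Um287. The sites, lists and tests were chosen with earlier results of these data known. Replicate numbers did not pair the libraries: same-numbered 12-somite and egg libraries had correlations of -0.403, -0.187 and -0.132 of their deviations from the stage means across sites. Between differently numbered libraries these correlations ran from -0.149 to 0.370, and what lies behind them was not tested.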

Additional observations from a re-analysis of the deposited data

Results flagged for a closer look

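High scores were also counted outside the listed sites. Of 6211 rRNA positions that the authors do not list and that had a mean of at least 10 flanking ends in every library, 17 scored at least 0.75 in all 3 12-somite libraries, against 3 in all 3 egg libraries, and 0 positions did so in both. With 5′ ends added as a condition, the counts were 10 in 12-somite embryos and 2 in egg. By 5′ ends alone, 155 positions in 12-somite embryos and 104 in egg reached 0.75 in all 3 libraries, and 45 did so in both groups. Among these 45 were early 28S positions 651, 693, 2536 and 3414, counted in the 10 above, and 1387, counted in the 2. At 28S positions 2536 and 2538, both of the 10, the lowest flanking means were only 14.6 and 11.5 ends. Among the listed sites, 82 in 12-somite embryos and 86 in egg scored at least 0.75 in all 3 libraries. The median score over unlisted positions was 0.143 ± 0.0676 in 12-somite libraries and 0.0870 ± 0.0280 in egg libraries (SD, n = 3 each), with an exact two-sided permutation p of 0.30, where 0.10 is the smallest possible. The difference of 0.0564 was 0.0213 without the third 12-somite library and 0.0888 without the first. What these positions carry was not tested.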

How the results depend on the processing

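The count of 0 called sites became 1 on the logit scale (28S-Cm3916), and ranged from 0 to 1 when 1 library was left out (18S-Um286 without the first 12-somite library, 28S-Cm3916 without the third). With 5′ ends it ranged from 0 to 6, and it was 0 under the other alternatives, including the quasi-binomial model, trend and robust limma, centred libraries, the 2 stages alone, 2 flanking positions, coverage minimums, barcode-corrected scores and the replicate block. The smallest limma adjusted p was 0.117 with the replicate block, 0.114 with a coverage minimum of 50 and 0.101 with scores not limited at 0. With 5′ ends 4 sites were partly methylated in 12-somite embryos and 5 in egg, and 1 was weak in 12-somite embryos. In egg, limits of 0.8 and 0.2 gave 8 partial and 1 weak site, 5′ ends gave 1 weak site, and leaving out 1 library gave 4 to 7 partial and 1 to 2 weak sites. The direction turned, never past the threshold, at these sites. With 5′ ends it became -0.256 at 18S-Gm436, 0.0110 at 18S-Cm462, 0.00691 at 28S-Am1511, 0.00285 at 28S-Am3697, -0.0189 at 28S-Gm4469, -0.00468 at 28S-Cm4506 and 0.0140 at 5.8S-Gm75. With 3′ ends it became 0.0915 at 18S-Um286, 0.0582 at 18S-Um287, 0.168 at 18S-Um354, 0.00901 at 28S-Am2802 and 0.0276 at 28S-Gm3923. Barcode-corrected scores gave -0.0955 at 18S-Gm436, 0.0229 at 28S-Am1511 and 0.00963 at 28S-Am3697. With 2 flanking positions it was 0.00118 at 18S-Um287, 0.0598 at 18S-Um354 and 0.0224 at 5.8S-Um8, with centred libraries 0.00482 at 18S-Um354 and 0.0136 at 5.8S-Um8, and on the logit scale 0.0985 at 5.8S-Um8. Leaving out 1 library gave -0.105 to 0.0406 at 18S-Um354, -0.0959 to 0.127 at 18S-Gm436, -0.145 to 0.0112 at 28S-Am1511 and -0.0808 to 0.102 at 5.8S-Um8. The cause was not tested. A barcode block could not be fitted because the stages share no barcode. Alternatives with 3′ ends, scores not limited at 0 and further 5′ fits were chosen after seeing the data. Under 10 flanking 5′ ends stood around 5 sites and under 10 3′ ends around 6, in some library, which limits the scores of one kind of end there.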

Other observations

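Of the unlisted positions that were high in 1 group, 3 are given here as a description, picked after their values were seen. A G at position 1767 of the early 18S rRNA, 1 position before 18S-Cm1703, scored 0.849, 0.799 and 0.885 in 12-somite embryos and 0.364, 0.519 and 0.449 in egg. A G at position 2395 of the early 28S rRNA, 83 positions from the nearest listed site, scored 0.808, 0.837 and 0.832 in 12-somite embryos, against 0.154, 0.429 and 0.00191 in egg. Both were picked for scores of at least 0.75 in all 3 12-somite libraries, so their distance from egg is not a separate result. In the other direction, a G at position 2138 of the early 28S rRNA, 84 positions from the nearest listed site, scored 0.532, 0.218 and 0 in 12-somite embryos and 0.836, 0.814 and 0.781 in egg. This G was picked in the same way, for its egg scores.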
